A study of Mus musculus with 12 samples.

Results

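The 10 smooth muscle contractile genes Acta2, Actg2, Tagln, Cnn1, Myl9, Myh11, Tpm1, Tpm2, Cald1 and Des were followed in 12 mouse RNA-seq libraries. The members were chosen by gene symbol, and each was found on 1 row of 24711 rows with a gene name in the GC2 files and on 1 row of 36823 in the spermatocyte files. In the GC2 files, Tagln shares its row with Sidt2 and Pafah1b2, and that value cannot be given to Tagln. The libraries form 4 groups of 3. Control GC2 cells and GC2 cells labelled PHB Knockdown are cultures of a mouse line that the labels call spermatocytes. The sources used here do not say by what method Phb was knocked down. The other groups are spermatocytes labelled Control and spermatocytes labelled Phb knock-out, with Phb-cKO in their titles. Their cells were taken from digested seminiferous tubules by flow sorting on a Hoechst DNA stain. Mouse strain, age and the way the allele was deleted are not stated in those sources. The libraries are called biological replicates there, but no animal or culture is named for any of them, so the p-values below reflect variation between libraries that may in part be technical.

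Smooth muscle contracts when a calcium-activated kinase phosphorylates the regulatory light chain of myosin, which then pulls on actin filaments coated with tropomyosin. Caldesmon, calponin and transgelin bind these actin filaments and tune them, and desmin filaments tie the apparatus together. Many of the genes are switched on by serum response factor (SRF), which binds a DNA element called the CArG box together with myocardin or the related cofactors MRTF-A and MRTF-B. In the testis these proteins are known from the peritubular myoid cells around each seminiferous tubule and from vessel walls. Some members, the tropomyosins and caldesmon above all, are also made in other forms by cells that are not muscle.

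Values are FPKM, the number of fragments scaled by transcript length and by the mapped fragments of the library. Both kinds of sample were quantified on different sets of rows, so changes were tested within each kind and levels between kinds are set side by side without a test. In GC2 cells the targeted gene Phb averaged 54.3 ± 2.15 FPKM in the controls and 20.02 ± 2.31 after knockdown (mean ± SD, n = 3, as in all values of this form below). In spermatocytes it averaged 13.3 ± 0.634 in the controls and 11.6 ± 0.241 in knockout libraries. Both were called lower by the test described below (limma adjusted p = 0.00062 and 0.0074), but the ratio of treated to control means was 0.368 in GC2 cells and 0.871 in spermatocytes, so Phb RNA differed little between the labelled spermatocyte groups. Of 10 pachytene spermatocyte markers, 10 were tested in spermatocytes and summed to 2656 to 2703 FPKM in control libraries. In GC2 cells 5 of them were found on a row, and these summed to 1.69 to 2.52 FPKM in control libraries, with the testis lactate dehydrogenase gene Ldhc listed at 0 in each.

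Promoter sequences were searched for the element through which many such genes are known to be controlled. RefSeq (GRCm38.p6) gave 8 promoters for 7 of the members, with none found for Actg2, Tagln or Myh11, and the 250 bases before each start were searched on both strands. A CArG box was present in 1 of the 8, that of Myl9, against 1.47% of 32851 promoters of this length. A near match, with 1 C or G in the A and T core, was present in 2, those of Acta2 and Myl9, against 7.24%. The element CATTCC, the MCAT motif that TEAD factors bind, was present in 3, those of Acta2, Tpm1 and Cald1, against 12.64%. Neither CArG form overlaps the other by definition, and a match is a description of letters and not of binding. The promoters of Acta2 and Myl9 are shown because they hold these elements. Those of Tpm1 and Tpm2 are shown as members of a gene family without CArG or near-CArG letters as defined here. CArG and near-CArG letters are in capitals.
Acta2 (chr19:34255374-34255623, minus strand): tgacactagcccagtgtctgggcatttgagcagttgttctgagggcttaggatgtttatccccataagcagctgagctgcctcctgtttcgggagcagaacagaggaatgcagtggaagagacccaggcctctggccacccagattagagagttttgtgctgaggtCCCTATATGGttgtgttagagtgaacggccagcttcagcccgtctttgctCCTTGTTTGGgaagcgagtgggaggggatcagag
Myl9 (chr2:156775214-156775463, plus strand): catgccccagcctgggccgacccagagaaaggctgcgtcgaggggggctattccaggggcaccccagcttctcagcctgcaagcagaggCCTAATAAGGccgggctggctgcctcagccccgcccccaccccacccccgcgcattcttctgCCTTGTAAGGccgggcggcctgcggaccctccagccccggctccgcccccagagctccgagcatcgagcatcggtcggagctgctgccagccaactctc
Tpm1 (chr9:67049214-67049463, minus strand): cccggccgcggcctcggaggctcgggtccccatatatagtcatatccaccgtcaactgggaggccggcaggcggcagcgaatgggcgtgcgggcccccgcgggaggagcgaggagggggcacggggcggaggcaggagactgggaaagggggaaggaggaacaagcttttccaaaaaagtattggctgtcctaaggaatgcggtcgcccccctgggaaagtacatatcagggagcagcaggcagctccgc
Tpm2 (chr4:43523555-43523804, minus strand): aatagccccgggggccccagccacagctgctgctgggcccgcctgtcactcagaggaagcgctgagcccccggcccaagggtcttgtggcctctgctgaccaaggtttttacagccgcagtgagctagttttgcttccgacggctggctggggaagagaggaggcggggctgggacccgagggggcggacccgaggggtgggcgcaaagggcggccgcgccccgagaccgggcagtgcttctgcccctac
In the Acta2 promoter the near matches read CCCTATATGG, 84 to 75 bases before the start, and CCTTGTTTGG, 34 to 25 bases before it. In the Myl9 promoter the CArG box reads CCTAATAAGG, 161 to 152 bases before the start, and the near match CCTTGTAAGG, 99 to 90 bases before it. Neither tropomyosin promoter held letters of these definitions in this window. Matches with a changed base in the outer CC or GG, such as CCATATATAG in Tpm1, were not searched for.

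The levels of the members differed in order between the cell line and the sorted cells. In control GC2 cells Tpm1 stood first at 119 ± 4.91 FPKM, followed by Acta2 at 93.8 ± 4.53, Tpm2 at 38.2 ± 1.51 and Cald1 at 33.4 ± 5.08, and the ranges of Tpm2 and Cald1 overlapped. The 5 members Des, Myl9, Cnn1, Actg2 and Myh11 each had a mean under 1 FPKM there, from 0.767 for Des down to 0.00667 for Myh11, the gene of the smooth muscle myosin heavy chain. In control spermatocytes Myl9 stood first at 18.2 ± 0.985 FPKM. Actg2 at 11.3 ± 0.146 and Acta2 at 10.7 ± 0.494 followed with overlapping ranges, then Tagln at 6.57 ± 0.904 and Tpm1 at 5.30 ± 0.806, whose ranges overlapped too. Myh11 was at 1.76 ± 0.108 FPKM, Cald1 at 1.37 ± 0.116, Tpm2 at 1.26 ± 0.148, Des at 0.457 ± 0.0850 and Cnn1 at 0.370 ± 0.0100. In the line the highest levels of the list were thus those of Tpm1, Acta2, Tpm2 and Cald1, with Myl9 and Myh11 under 1 FPKM. In the sorted cells they were those of Myl9 and both smooth muscle actins. The rows of the tropomyosins and caldesmon do not tell muscle from non-muscle forms. In knockdown GC2 cells Acta2 averaged 16.8 ± 0.716 FPKM, below Tpm1, Tpm2 and Cald1, and its range overlapped that of the row with Tagln. In knockout spermatocytes Myl9 stayed first at 49.8 ± 11.2 FPKM, followed by Acta2 at 25.9 ± 0.210 and Tpm1 at 12.9 ± 0.626, and Actg2 at 1.48 ± 0.494 lay below all but Des and Cnn1, with a range that overlapped that of Tpm2.

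**Figure D1:**
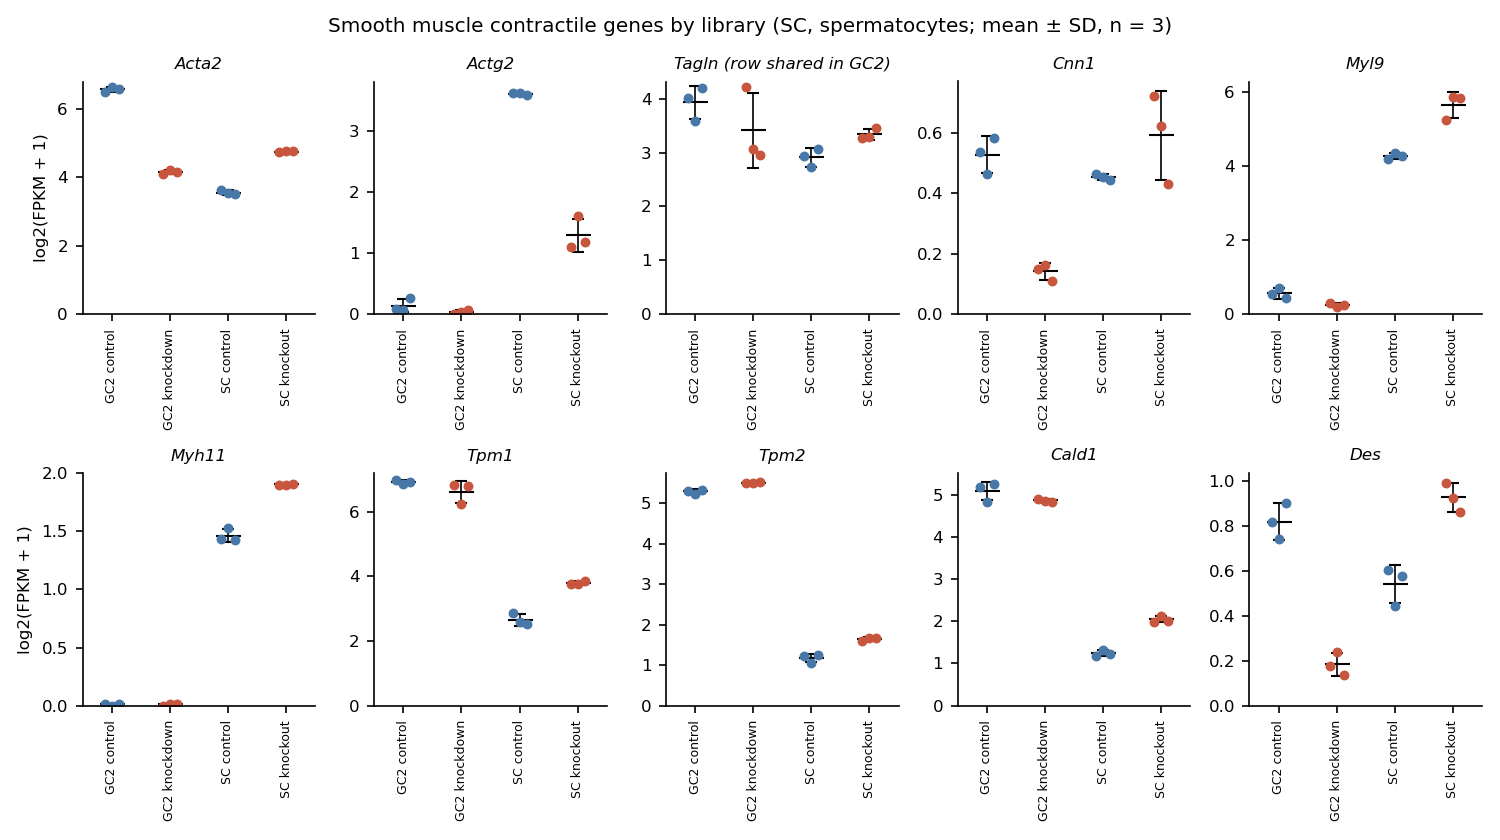
Levels of the 10 members as log2(FPKM + 1) in each of the 12 libraries (points), with mean and SD of the 3 libraries of a group; each panel has its own axis from 0. Acta2 is lower in GC2 knockdown and higher in knockout spermatocytes than in the respective controls, and Actg2 is high in control spermatocytes alone.

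The question of the first comparison is which members differed between knockdown and control GC2 cells. The test was limma on log2(FPKM + 1) over the 10791 rows with 1 FPKM or more in 3 or more of 6 libraries, with Benjamini-Hochberg adjustment and a call at an adjusted p under 0.05. A row that passes only through the group where it is high can hardly be called in the other direction. Several rows of the lists below pass in this way, but no tested member does in either comparison. The rows of 5 of the 10 members passed this filter, the row that Tagln shares among them. Of these 1 fell and 1 rose, against a background of 24.5% of all tested rows called, 13.9% lower and 10.7% higher. Acta2, which encodes the smooth muscle alpha actin, held 88.9, 97.85 and 94.54 FPKM in control and 16.15, 17.58 and 16.81 in knockdown libraries. All 3 knockdown libraries lay far below the controls, and the ratio of the means was 5.57 in favour of control (log2 fold change -2.41, SE 0.057, adjusted p = 3.1e-05). Tpm2, a tropomyosin gene, held 38.71, 36.47 and 39.34 FPKM in control and 44.6, 44.08 and 44.95 in knockdown libraries. Its groups did not overlap either, but the change was small (log2 fold change 0.22, SE 0.045, adjusted p = 0.023). That call was lost without control replicate 1 or 2 or without any 1 of the 3 knockdown libraries, at adjusted p = 0.050 to 0.076.

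The other 3 tested rows, 1 of them the row that Tagln shares, were not called in GC2 cells. Tpm1 held 124.01, 114.23 and 118.31 FPKM in control and 111.03, 73.83 and 109.56 in knockdown libraries (log2 fold change -0.30, SE 0.17, adjusted p = 0.27). The knockdown libraries lay below the controls, but 1 of them stood far from the other two. Leaving out 1 library at a time gave -0.40 to -0.11, with the value nearest 0 without knockdown replicate 2, and no call. Cald1, the caldesmon gene, held 35.47, 27.66 and 37.18 FPKM in control and 29.24, 28.22 and 27.51 in knockdown libraries (adjusted p = 0.24). These ranges overlapped through control replicate 2, and without that library Cald1 was called lower (log2 fold change -0.35, adjusted p = 0.024). The row shared by Sidt2, Tagln and Pafah1b2 held 15.17, 10.98 and 17.26 FPKM in control and 17.52, 7.41 and 6.72 in knockdown libraries. Knockdown replicate 1 stood with the controls (adjusted p = 0.39), and without it the row was called lower (log2 fold change -0.92, adjusted p = 0.046). Without knockdown replicate 3 its log2 fold change was -0.29, with no call.

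The 5 members under the filter were too low to test in GC2 cells and are described by their levels. Des, the gene of the intermediate filament protein desmin, held 0.76, 0.67 and 0.87 FPKM in control and 0.13, 0.18 and 0.10 in knockdown libraries. Cnn1, which encodes smooth muscle calponin, held 0.45, 0.38 and 0.50 in control and 0.11, 0.12 and 0.08 in knockdown libraries. Myl9, the gene of the smooth muscle regulatory light chain, held 0.46, 0.63 and 0.34 in control and 0.22, 0.14 and 0.18 in knockdown libraries. In these 3 genes every knockdown library was below every control library. Groups did not overlap, in either direction, in 44.9% of the rows that passed the filter. The share among rows under the filter was not computed. Actg2 stayed at or under 0.2 FPKM and Myh11 at or under 0.01 FPKM in every GC2 library. With no filter, Des and Cnn1 were called lower (adjusted p = 0.0050 and 0.0065) and Myl9 was not.

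The chromosome of each member is given because calls were unevenly spread in GC2 cells. Acta2 (ENSMUSG00000035783.9) lies on chromosome 19, 34241090 to 34255590, minus strand, in GENCODE M21 on GRCm38, where 21.1% of tested rows were called lower and 8.35% higher. Tpm2 (ENSMUSG00000028464.16, chromosome 4, 43514711 to 43523765, minus strand) lies where 17.9% were higher and 6.22% lower. Tpm1 (ENSMUSG00000032366.15, chromosome 9, 67022590 to 67049406, minus strand) and the row with Tagln lie where 3.55% were higher and 20.98% lower. Cald1 (ENSMUSG00000029761.16, chromosome 6, 34598500 to 34775473, plus strand) lies where 7.72% were higher and 15.7% lower. The median log2 fold change over tested rows was -0.09 on chromosome 19, 0.094 on chromosome 4 and -0.15 on chromosome 9. With the shared row of Tagln counted, the members summed to 289 to 309 FPKM in control and 172 to 219 in knockdown libraries. The part of these chromosome differences in the members' values was not tested.

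**Figure D2:**
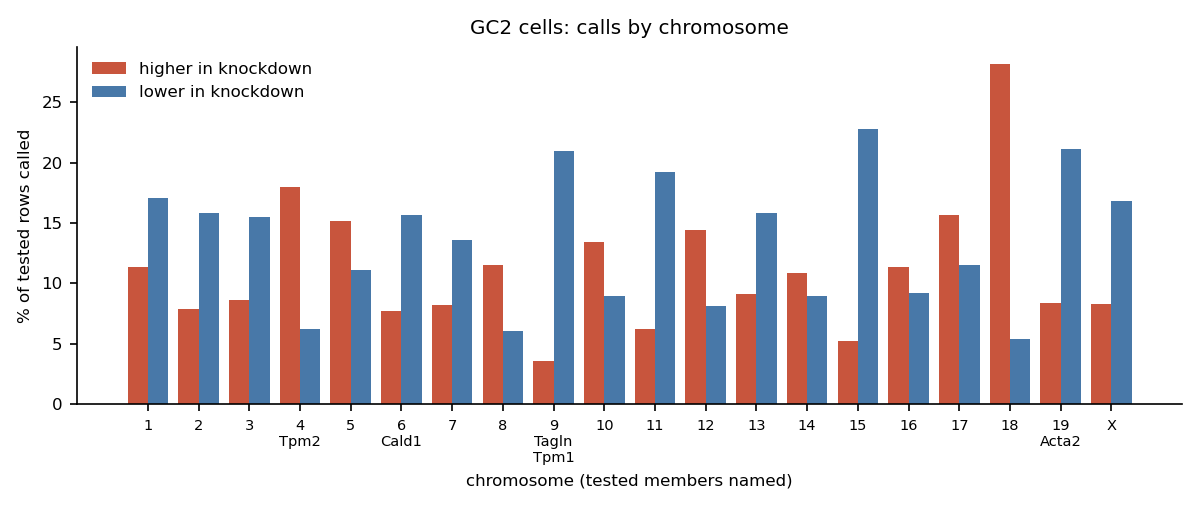
Percentage of tested rows on each chromosome called higher (red) or lower (blue) in knockdown than in control GC2 cells, with the tested members named under their chromosome. Chromosome 9 has 3.55% higher and 20.98% lower, and chromosome 4 has 17.9% higher and 6.22% lower.

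The second comparison asks which members differed between knockout and control spermatocytes. It covered 15957 tested rows with the same test. Of 10 members 8 passed the filter, and 7 rose and 1 fell, against a background of 79.4% of all tested rows called, 40.9% higher and 38.5% lower. The groups did not overlap in any of the 8, and in 81.8% of all tested rows. The median log2 fold change of these 8 members was 0.64, against 0.047 over all tested rows. In these bulk libraries, fewer cells of a type and less RNA per cell cannot be told apart.

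Both smooth muscle actin genes changed, in opposite directions. Acta2 held 11.26, 10.61 and 10.29 FPKM in control and 25.65, 26.07 and 25.88 in knockout libraries. The knockout libraries were all above the controls, 2.41 times by the means (log2 fold change 1.20, SE 0.038, adjusted p = 6.4e-07). Actg2 (ENSMUSG00000059430.14, chromosome 6, 83512905 to 83536265, minus strand), which encodes the gamma actin of visceral smooth muscle, held 11.36, 11.4 and 11.13 FPKM in control and 1.14, 2.05 and 1.26 in knockout libraries. It was thus about as abundant as Acta2 in control spermatocytes and far below it in knockout libraries (log2 fold change -2.33, SE 0.14, adjusted p = 1.1e-05). Pachytene markers fell in 10 of 10 in the same knockout libraries, with a median log2 fold change of -5.29. Spermatid markers fell in 8 of 8 (median -5.36), from 794 to 831 FPKM in sum in control to 7.24 to 9.51 in knockout libraries. Of all tested rows, 38.5% were called lower, and the part of germ cell stages in the fall of Actg2 was not tested. Acta2 shares 0.326% of its 50-base stretches with transcripts of other genes in GENCODE M21 and Actg2 shares 0 of 1592, so few exact stretches of that length are common to either and another gene.

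Of the myosin genes, Myl9 (ENSMUSG00000067818.6, chromosome 2, 156775420 to 156781658, plus strand) held 17.25, 19.22 and 18.19 FPKM in control and 36.91, 56.64 and 55.9 in knockout libraries. All knockout libraries were higher, with replicate 1 apart from the other two (log2 fold change 1.38, SE 0.17, adjusted p = 0.00040). Myh11 (ENSMUSG00000018830.10, chromosome 16, 14194535 to 14291372, minus strand) held 1.71, 1.88 and 1.68 FPKM in control and 2.74, 2.74 and 2.75 in knockout libraries (log2 fold change 0.44, SE 0.049, adjusted p = 0.00023). The log2(FPKM + 1) scale makes changes of weakly expressed genes look smaller. By the ratio of means, Myl9 was 2.73 times and Myh11 1.56 times its control level.

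The tropomyosin and caldesmon genes rose. Tpm1 held 6.22, 4.96 and 4.72 FPKM in control and 12.43, 12.55 and 13.57 in knockout libraries (log2 fold change 1.14, SE 0.096, adjusted p = 6.0e-05). Tpm2 held 1.33, 1.09 and 1.36 in control and 2.02, 2.18 and 2.20 in knockout libraries (log2 fold change 0.47, adjusted p = 0.00072). The groups of both genes were apart, at ratios of 2.42 and 1.69. Cald1, whose product inhibits the myosin motor on actin, held 1.26, 1.49 and 1.35 in control and 2.99, 3.38 and 3.04 in knockout libraries (log2 fold change 0.81, SE 0.063, adjusted p = 4.4e-05).

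The transgelin gene Tagln (ENSMUSG00000032085.5, chromosome 9, 45929619 to 45936058, minus strand), an early smooth muscle marker, had a row of its own in spermatocytes. It held 6.67, 5.62 and 7.42 FPKM in control and 8.70, 8.73 and 9.96 in knockout libraries (log2 fold change 0.42, SE 0.10, adjusted p = 0.0085). This was the smallest ratio of the risen members, 1.39. Tagln overlaps Pcsk7 and Gm48529 on the plus strand, and the sources used here do not say whether fragments were assigned by strand. The other two members missed the filter. Des (ENSMUSG00000026208.9, chromosome 1, 75360329 to 75368579, plus strand) held 0.52, 0.36 and 0.49 in control and 0.99, 0.90 and 0.82 in knockout libraries, with no overlap, and Cnn1 (ENSMUSG00000001349.5, chromosome 9, 22099216 to 22109630, plus strand) held 0.38, 0.37 and 0.36 in control and 0.65, 0.54 and 0.35 in knockout libraries, with overlap through replicate 3. All 8 spermatocyte calls held their direction and significance under each alternative tried. With quantile normalization, which put the all-row median at 0.28 instead of 0.047, the log2 fold changes of Tpm2, Myh11 and Cald1 were 1.02, 0.78 and 1.28, and 62.0% of calls were higher against 51.6%.

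**Figure D3:**
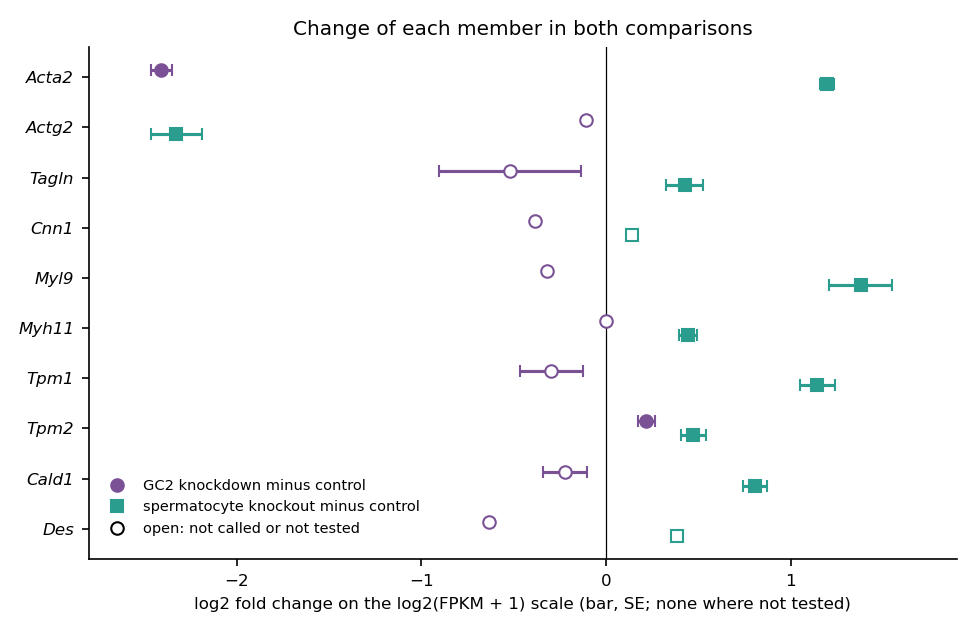
Log2 fold change of each member on the log2(FPKM + 1) scale, with SE for tested rows, in GC2 cells (circles) and spermatocytes (squares); filled symbols were called. Acta2 is at -2.41 in GC2 cells and 1.20 in spermatocytes, and Actg2 is the member that fell in spermatocytes.

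Markers of other testis cells moved in the same knockout libraries as the members. Sums are over all markers found on a row, tested or not. Over all tested rows, 40.9% were called higher and 38.5% lower. Some marker rows name another gene too: Insl3 with Jak3, Cyp11a1 with Gm17322, Dhh with Rhebl1 and Tsx with Tsix. They are counted here, although their values cannot be given to the marker alone. Endothelial markers rose in 8 of 10 (median log2 fold change 0.53) and summed to 21.8 to 22.2 FPKM in control and 35.7 to 39.5 in knockout libraries, with the vascular cadherin gene Cdh5 going from 5.35 ± 0.156 to 9.82 ± 0.492. Sertoli cell markers rose in 13 of 14 (median 1.72) and summed to 793 to 883 FPKM in control and 3272 to 3465 in knockout libraries. Leydig cell markers rose in 7 of 7 (median 2.27), from 38.5 to 40.9 FPKM in sum to 253 to 271, and macrophage markers rose in 7 of 8 (median 0.55), from 18.0 to 24.5 in sum to 37.6 to 40.4. Of 3 tested pericyte markers, 1 rose, Rgs5, from 2.98 ± 0.220 to 6.44 ± 0.380, although 3 rose with quantile normalization or median centring. The members summed to 57.0 to 58.0 FPKM in control and 94.2 to 116 in knockout libraries. No defining marker of these lists was at 0 in all 6 libraries, and the part of other cell types in the members' changes was not tested.

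Interstitial fibroblast markers went the other way from most members. Of 7 tested, 5 fell and 0 rose, where 38.5% of all tested rows were called lower and 40.9% higher. With the untested Tcf21, which averaged 0.633 FPKM in control and 1.06 in knockout libraries, the 8 markers summed to 40.4 to 43.1 FPKM in control and 19.0 to 20.1 in knockout libraries. The collagen genes Col3a1, whose row also names Gm47302, and Col1a2 fell from 11.3 ± 0.219 to 3.62 ± 0.177 and from 7.11 ± 0.250 to 2.36 ± 0.102 FPKM (limma adjusted p = 5.2e-07 and 1.3e-06). With quantile normalization 3 of the list fell and 1 rose, and with median centring 5 fell and 1 rose. In GC2 cells, 5 of 6 tested fibroblast markers fell and 1 rose, in the same libraries in which Acta2 fell, with Col1a2 at 54.4 ± 2.13 FPKM in control and 10.8 ± 0.265 in knockdown libraries and Bgn at 35.1 ± 1.40 and 4.71 ± 0.327. These GC2 fibroblast markers summed to 392 to 411 FPKM in control and 257 to 265 in knockdown libraries, while 0 of 8 endothelial markers found on a row reached the filter. Of 2 tested pericyte markers in GC2 cells 1 rose and 0 fell, and with no filter 1 rose and 3 fell. Of 5 tested Sertoli markers 3 rose and 0 fell there, and with no filter 2 rose and 1 fell. Over all tested GC2 rows, 10.7% were called higher and 13.9% lower.

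The third comparison asks whether the change of a member differed between the cell line and the sorted cells. It was tested as an interaction in 1 limma fit of all 12 libraries over 8754 genes tested in both, of which 60.7% were called. Acta2, Tpm1, Cald1 and Tpm2 could be tested, and each was called. The spermatocyte change exceeded the GC2 change by 3.61 for Acta2 (SE 0.070, adjusted p = 4.2e-10), by 1.44 for Tpm1 (SE 0.21, adjusted p = 0.00019), by 1.03 for Cald1 (SE 0.14, adjusted p = 0.00012) and by 0.25 for Tpm2 (SE 0.077, adjusted p = 0.016), all on the log2 scale. The Tpm2 difference was 0.75 with quantile normalization and 0.50 with a pseudocount of 0.1, and was called in each. Acta2 was called in opposite directions, Tpm2 rose in both, and Tpm1 and Cald1 rose in spermatocytes and were not called in GC2 cells.

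Most of the contractile genes have relatives made in cells that are not muscle, and these counterparts were compared beside the members. For Cald1 the list holds none. In GC2 knockdown cells 5 of 12 tested counterparts rose and 0 fell, and the count was 1 to 3 when any 1 library was left out. Over all tested GC2 rows, 10.7% were called higher and 13.9% lower. The cytoplasmic actin gene Actb averaged 434 ± 4.29 FPKM in control and 449 ± 79.9 in knockdown libraries (adjusted p = 0.88), and the row of Actg1 and Gm23419 rose from 359 ± 20.5 to 470 ± 37.6 (adjusted p = 0.020). Neither cytoplasmic actin row was called lower in the libraries in which Acta2 fell. The relative of Cnn1, Cnn2, rose from 23.5 ± 0.475 to 31.5 ± 0.738 FPKM (adjusted p = 0.0027), and the row shared by the light chain genes Myl12a and Myl12b rose from 112 ± 7.38 to 141 ± 4.16 (adjusted p = 0.015). Vim, which encodes the intermediate filament protein vimentin, rose from 137 ± 3.79 to 153 ± 3.01 (adjusted p = 0.043), in libraries in which Des was at or under 0.18 FPKM.

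In knockout spermatocytes 10 of 12 counterparts rose and 1 fell, with a median log2 fold change of 1.09. Over all tested rows there, 40.9% were called higher and 38.5% lower. Actb rose from 173 ± 7.78 to 371 ± 29.0 FPKM, about as much as Acta2 (log2 fold changes 1.10 and 1.20). Vim rose from 32.8 ± 3.11 to 110 ± 3.73 FPKM, Cnn3 from 21.6 ± 0.702 to 64.3 ± 0.916 and Tpm4 from 22.6 ± 1.03 to 58.5 ± 0.565. The light chain row of Myl12a and Myl12b rose from 24.9 ± 0.526 to 60.2 ± 4.14 FPKM (log2 fold change 1.24), beside 1.38 for Myl9. The heavy chain genes split: Myh9 rose from 9.83 ± 0.325 to 21.6 ± 0.0666 FPKM, while Myh10 fell from 16.7 ± 0.588 to 7.06 ± 0.202 (adjusted p = 5.5e-07 and 9.4e-07). Cnn2 was at 2.66 ± 0.213 and 2.79 ± 0.373 FPKM with no call (adjusted p = 0.65).

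**Figure D4:**
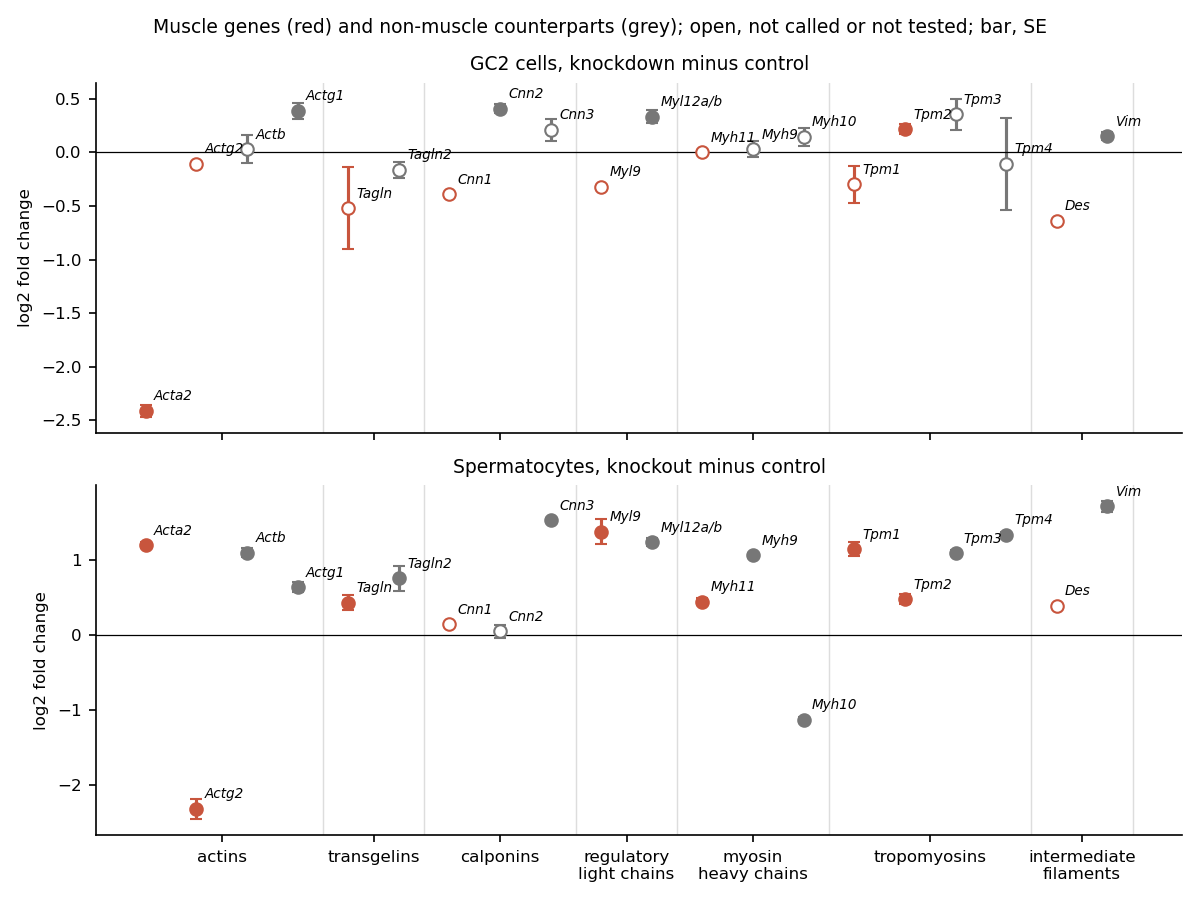
Log2 fold change with SE (none where not tested) of muscle members in red and non-muscle counterparts in grey, grouped by protein family, in GC2 cells (top) and spermatocytes (bottom); open symbols were not called or not tested. In GC2 cells Acta2 at -2.41 stands apart from Actb and Actg1, and in spermatocytes Actg2 at -2.33 and Myh10 at -1.14 stand below 0.

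Of 28 other smooth muscle genes, 18 were tested in GC2 cells, of which 4 rose and 4 fell, and 20 in spermatocytes, of which 16 rose and 3 fell. Over all tested rows, 10.7% were called higher and 13.9% lower in GC2 cells, and 40.9% higher and 38.5% lower in spermatocytes. The count of 4 that fell in GC2 cells was 1 to 3 when any 1 library was left out. Fhl1, a LIM domain gene, rose in both, from 2.87 ± 0.310 to 12.7 ± 0.595 FPKM in GC2 cells and from 12.2 ± 0.570 to 27.6 ± 8.03 in spermatocytes (limma adjusted p = 0.00017 and 0.0035). Itga5, the gene of a fibronectin receptor subunit, fell from 24.4 ± 1.95 to 14.7 ± 0.923 FPKM in GC2 cells and rose from 1.37 ± 0.0723 to 3.17 ± 0.141 in spermatocytes. Mylk, which encodes the kinase that activates the regulatory light chain, was called lower in GC2 cells, from 1.10 ± 0.0436 to 0.667 ± 0.107 FPKM. It passed the filter there through the control libraries alone, as did the row of Itga1 and Pelo. Both are among the 4 that fell, and the filter left hardly any other direction for their calls. In spermatocytes Mylk was called higher, from 5.12 ± 0.114 to 6.67 ± 0.505. It is named after its values were seen. The largest change among these genes in spermatocytes was that of the small heat shock protein gene Hspb1, from 47.6 ± 1.20 to 206 ± 1.21 FPKM, and the filamin gene Flna rose from 12.8 ± 0.0755 to 25.1 ± 0.617.

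Genes of the transcription factor and its cofactors were measured too. In GC2 cells Srf averaged 4.37 ± 2.42 FPKM in control and 5.58 ± 0.497 in knockdown libraries and was not called (adjusted p = 0.44). In spermatocytes the row of Cul9 and Srf rose from 6.70 ± 0.328 to 12.1 ± 0.143 FPKM and cannot be given to either gene. Myocd, the myocardin gene, was at or near 0 in each group, with means from 0 to 0.06 FPKM. Mkl1, which encodes MRTF-A, was at 7.06 ± 0.459 and 6.15 ± 0.932 FPKM in GC2 cells with no call (adjusted p = 0.30), and under its newer symbol Mrtfa it fell from 6.92 ± 0.351 to 4.37 ± 0.442 in spermatocytes (adjusted p = 0.00047). Mkl2 was at 2.46 ± 1.31 and 2.35 ± 0.629 FPKM in GC2 cells with no call, and as Mrtfb it rose from 3.59 ± 0.0651 to 6.49 ± 2.08 in spermatocytes (adjusted p = 0.015). The list they belong to also holds other regulators, among them Yap1, Smad3, Klf4, Rock1 and Rock2. Of it, 1 of 15 tested rose in GC2 cells, the kinase gene Rock1, from 10.1 ± 0.336 to 16.1 ± 0.275 FPKM, and 14 of 16 rose and 1 fell in spermatocytes, the row of Cul9 and Srf among those that rose. The GC2 count was 2 without control replicate 2. Of all tested rows, 10.7% were called higher in GC2 cells and 40.9% in spermatocytes.

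**Figure D5:**
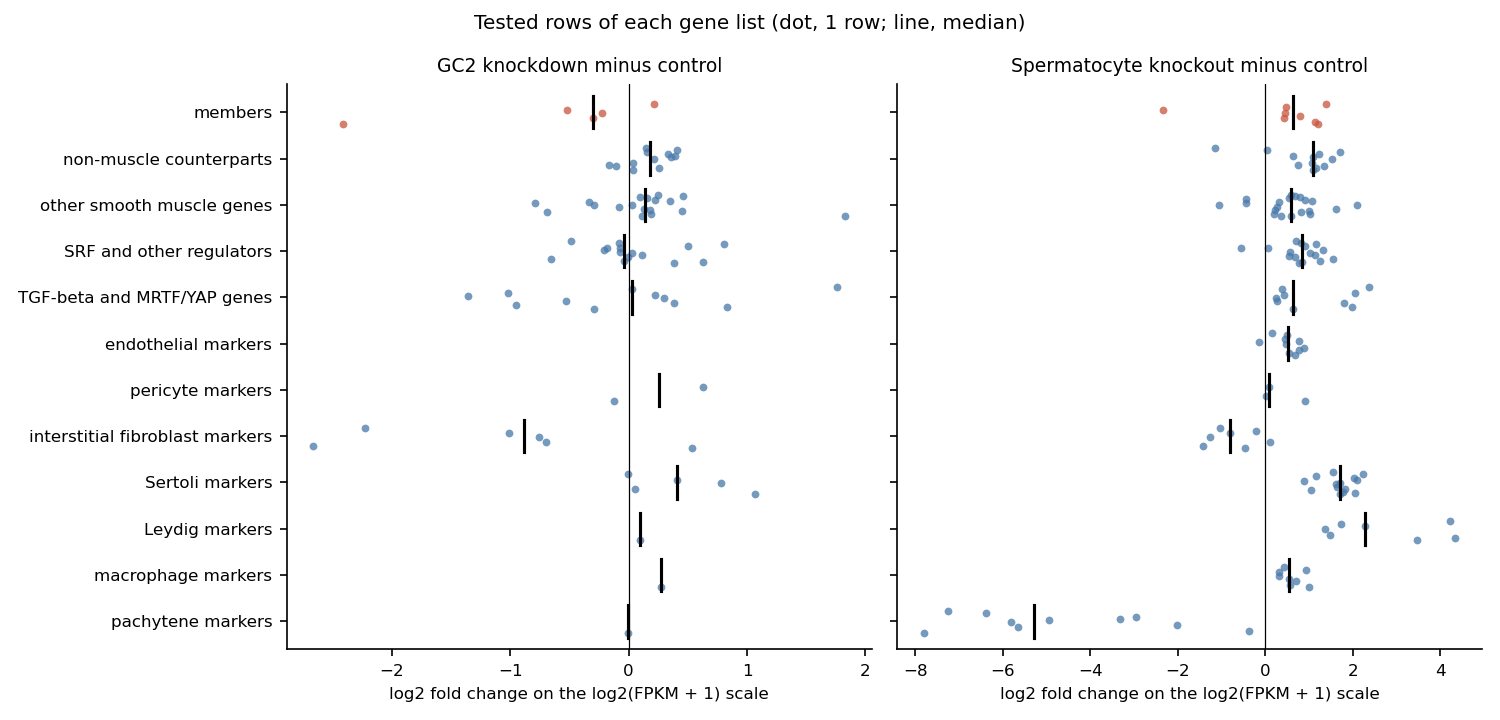
Log2 fold changes of the tested rows of each gene list (dots) with their median (line), in GC2 cells (left) and spermatocytes (right); the axes differ. In spermatocytes the members' median of 0.64 lies among positive list medians, with interstitial fibroblast and pachytene markers below 0.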

How the data were processed

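Each library's file holds FPKM computed by the authors for every gene row, to 2 decimals, per the file headers. The submitters' processing notes name HISAT2 version 2.1.0, DESeq, GRCm38 and mm10 without a role, and a directional kit was used for library preparation, per the labels' protocols. The quantifier and the annotation release: not given in the sources used here. FPKM totals were 194949 to 206711 in GC2 and 289707 to 297362 in spermatocyte libraries. Depth is not stated, and at the best trial depth 17.1% to 36.4% of low values lay within 0.1 of a whole fragment. At a depth fixed beforehand 20.0% is expected with no such steps, and choosing the best of many depths can raise this share. Whole reads were thus not recovered and no counting interval is given.

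Rows without a gene name held 0.75% to 3.93% of the FPKM and were left out. The tests, two-sided, were run in limma 3.58.1 (R 4.3.3) with a variance trend on log2(FPKM + 1), a scale that understates the change of low genes. A member's row was that with the highest mean. Positions are from GENCODE M21 and figures from matplotlib 3.10.9. The script was tested on simulated data. Members and gene lists were chosen with earlier results of these data known. Named beside the members are the called genes with the 4 smallest adjusted p of a list, the non-muscle counterparts and the SRF genes. The values of 1 listed gene are not reported here. Alternatives were a pseudocount of 0.1, no filter, quantile normalization, median centring, rescaling to TPM, no variance trend, a replicate block, summed rows and leaving out each library. Same-numbered libraries deviated together with r = 0.061 to 0.124 in GC2, where differently numbered ones had r = -0.074 to -0.001. In spermatocytes same-numbered libraries had r = -0.054 to 0.007. These values are small and no animal or culture is named, so the main fit did not take the numbers as pairs.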

Additional observations from a re-analysis of the deposited data

Results flagged for a closer look

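For the 7 genes named here the change in spermatocytes differed from that in GC2 cells by an interaction test in limma, Benjamini-Hochberg adjusted over 8754 genes, of which 60.7% were called. Among the members the differences, spermatocyte minus GC2 log2 fold change, were 3.61 for Acta2, 1.44 for Tpm1, 1.03 for Cald1 and 0.25 for Tpm2. Among the other lists, genes called in opposite directions included Thbs1 with a difference of 3.73 (adjusted p = 2.5e-10), Itga5 with 1.51 (adjusted p = 4.4e-07) and Mylk with 0.66 (adjusted p = 0.00011). They were picked by their opposite calls and an adjusted p under 0.05 in this same test, so these p-values add no separate support. Mylk passed the GC2 filter through the control libraries alone. Genes whose symbol differs between both kinds of sample, such as Cyr61 and Ccn1, could not enter.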

How the results depend on the processing

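The 8 spermatocyte calls of members, 7 higher and 1 lower, were made under each of the 14 alternatives, as was the fall of Acta2 in GC2 cells, whose log2 fold change ranged from -2.47 to -2.34. In GC2 cells the count of called members was 2, of which 1 was higher and 1 lower. With no filter it was 4, of which 3 were lower. With the replicate block it was 1, with 0 higher, since Tpm2 had an adjusted p of 0.051. The block changed no other member's call, moved the GC2 count of risen SRF list genes from 1 to 2 and that of fallen other smooth muscle genes from 4 to 2, and in GC2 each control library correlated best with the knockdown library of its own number, a hint from the data and not the design. Without 1 library the count of called members ranged from 1 to 2, of higher members from 0 to 1 and of lower members from 1 to 2. The number of members whose changes differed between both kinds of sample was 4, and 9 with no filter, where more genes are tested. Over all rows, 2649 were called in GC2 and 12672 in spermatocytes. The share of GC2 calls that were higher was 43.5%, 53.6% with quantile normalization and 57.4% with rescaling to TPM. Summing rows changed nothing because each member has 1 row. Values under 1 FPKM rest on few fragments and their depth is unknown.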

Other observations

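A list of transforming growth factor beta ligands and receptors and of genes known to answer to that factor, MRTF or YAP was also measured. In GC2 knockdown cells 4 of 11 tested fell and 1 rose, where 13.9% of all tested rows were called lower and 10.7% higher. Thbs1, the gene of the matrix protein thrombospondin, fell from 29.2 ± 0.637 to 10.8 ± 0.675 FPKM, and Lox, which encodes a collagen crosslinking enzyme, from 17.7 ± 2.13 to 8.64 ± 0.428, while Ankrd1 rose from 34.8 ± 2.47 to 123 ± 30.0 (limma adjusted p = 0.00017, 0.0028 and 0.0035). The genes Tgfb1, Tgfb2, Tgfb3, Tgfbr1 and Tgfbr2, which encode ligands and receptors, were not called there. In knockout spermatocytes 9 of 9 tested rose, the 5 ligand and receptor genes among them, where 40.9% of all tested rows were called higher. Tgfb2 and Tgfbr2 passed the filter there through the knockout libraries alone. Of the genes under the filter, Postn and Lox were lower without overlap and Ankrd1 overlapped. Postn averaged 1.17 ± 0.189 FPKM in control and 0.613 ± 0.0850 in knockout libraries, and Lox 0.897 ± 0.121 and 0.570 ± 0.104. Thbs1 went from 9.56 ± 0.167 to 53.8 ± 0.569 FPKM, Ccn1 from 90.2 to 377 (log2 fold change 2.05, SE 0.025), Ccn2 from 5.47 ± 0.133 to 24.6 ± 0.0153 and the growth factor gene Tgfb3 from 6.08 ± 0.374 to 23.5 ± 0.348, in the same libraries in which Sertoli markers had a median log2 fold change of 1.72.

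Genes of striated muscle were near 0 in GC2 cells, where 0 of 13 found on a row reached the filter and their sum was 0.65 to 1.16 FPKM. In spermatocytes 2 of 16 were tested and 1 rose, the cardiac actin gene Actc1, from 0.320 ± 0.132 to 1.36 ± 0.195 FPKM (limma adjusted p = 0.00035). Actc1 passed the filter through the knockout libraries alone, so it could hardly be called lower. Of all tested rows, 40.9% were called higher.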
